A study of Gossypium hirsutum with 18 samples.

Results

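SAS-treated and AS-treated roots of upland cotton (Gossypium hirsutum) seedlings were compared, gene by gene, in 6 of the series' 18 RNA-seq libraries. The 3 SAS root libraries were set against the 3 AS root libraries over every gene with an FPKM of at least 1 in 3 or more of the 6, which left 35545 of 70478 genes. FPKM is the authors' fragment count scaled by gene length and library size. SAS and AS are the submitters' codes for alkaline treatments of 12 h that followed growth in soil. Their protocols name a 125 mM NaHCO3 solution and an NaOH solution adjusted to its pH. Which code stands for which solution is not stated, so no difference below can be assigned to bicarbonate, sodium or pH. CK roots, labelled as untreated, were in no comparison here. Their levels stand beside some results for orientation, on the same scale. Sequencing was of poly(A) RNA from roots, and the labels name neither the variety nor the age of the seedlings. The labels do not say whether replicate libraries are from different plants. P-values therefore measure only the spread between libraries, which may be technical.

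Alkaline soil confronts a root with a high external pH and, where carbonates are present, with bicarbonate and sodium as well. Proton-coupled uptake of nitrate, sulfate, phosphate and potassium then has a smaller proton gradient to draw on, and iron is poorly soluble. Mitochondria respond to an impaired electron chain by making alternative oxidase, which passes electrons to oxygen without pumping protons, while fermentation enzymes regenerate NAD when oxygen or respiration runs short. Ethylene and jasmonate are hormones that roots make under many stresses, and WRKY, NAC, MYB and ethylene response factors are the large families of plant transcription factors through which such signals reach other genes. Gene names below are the deposited descriptions, most of them those of Arabidopsis genes, and the roles given are those known from Arabidopsis unless said otherwise.

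Total counts were 52706676 to 56239343 in SAS roots and 53608937 to 66557277 in AS roots. The 10 most abundant genes held 2.85% to 3.29% of counts in SAS roots and 4.66% to 5.88% in AS roots. Between 58.1% and 59.8% of counts from 1 to 20 were even. The cause was not tested, and intervals from counts alone may be too narrow. The first principal component carried 74.9% of the variance and separated SAS from AS roots. The second, with 10.2%, set SAS library 1 (61.2) apart from SAS libraries 2 and 3 (-27.0 and -33.3). Correlations of log2 CPM were 0.961 to 0.981 within SAS, 0.963 to 0.985 within AS and 0.844 to 0.886 between them. CPM is the count divided by the TMM-scaled library total, times 1000000. Neither the handling of reads that match both the A and the D copy nor the use of strand in counting is stated, so values of near-identical copies and of overlapping genes are uncertain.

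**Figure D1:**
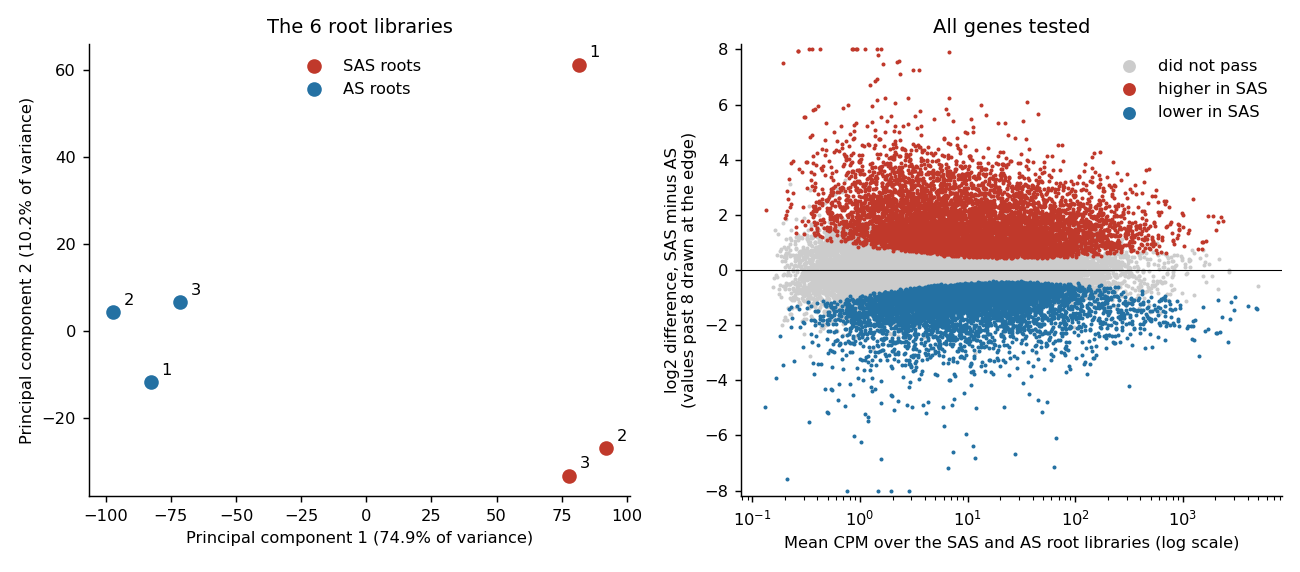
Left, principal components of log2 CPM in the 6 libraries, with the library number beside each point. SAS and AS roots lie at opposite ends of the first component, which carries 74.9% of the variance, and SAS library 1 is apart on the second. Right, log2 difference (SAS minus AS) of the 35545 genes tested against mean CPM on a log scale, with 7615 genes higher in SAS roots in red and 6500 lower in blue.

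SAS and AS roots differed over a large part of the genes tested. edgeR's quasi-likelihood test with Benjamini-Hochberg adjustment called 14115 of 35545 genes at an adjusted p under 0.05, which is 39.7%. Of these, 7615 genes were higher in SAS roots (21.4%) and 6500 were lower (18.3%), and these shares are the background for every list below. At least 2-fold differences were more often upward, with 5648 genes higher (15.9%) and 3800 lower (10.7%), and past 8-fold there were 771 higher and 201 lower. The median log2 difference was -0.01 over all genes tested, 1.47 among those called higher and -1.11 among those called lower. Among the called genes 13870 had no overlap between the groups' CPM values, beside 19135 such genes (53.8%) among all those tested. The filter itself lets in genes through a single group. The 1100 genes that reached an FPKM of 1 in SAS roots alone included 1046 called, and the 783 that reached it in AS roots alone included 627 called. Over the other 33662 genes, 19.5% were higher and 17.4% lower. For lists with at least 5 members of this kind, counts without them follow the count over the list. Genes at exactly 3 libraries numbered 2708, and 2133 more fell just outside, at 2 libraries. The A and D subgenomes had like shares, with 21.3% higher and 18.6% lower among 16610 A genes and 21.7% higher and 18.6% lower among 17269 D genes. Without AS library 2 the test called 9173 genes, 3915 of them lower, which is the fewest with a library left out.

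Transporters led the genes that were higher in SAS roots. Tonoplast intrinsic protein 4;1, a water channel of the vacuole membrane (Gh_D06G0982, chromosome D06 from 20390073 to 20393472 in the deposited coordinates, build not given in the sources used here), had 97.4, 77.7 and 37.3 CPM in SAS roots, against 0.861, 1.64 and 0.574 CPM in AS roots. The log2 difference was 6.10 ± 0.53, adjusted p = 0.00045, where ± is the standard error of the fit throughout. The high-affinity K+ transporter 5, HAK5, which takes up potassium when it is scarce (Gh_A01G1516, chromosome A01 from 90990164 to 90993393), had 30.8, 34.6 and 13.8 CPM in SAS roots, against 0.344, 0.234 and 0.660 CPM in AS roots (6.0 ± 0.51, adjusted p = 0.00044). In both genes the lowest SAS library stood far above the highest AS library. Nitrate transporter 1.5, which loads nitrate into the xylem (Gh_D13G0121, chromosome D13 from 1225598 to 1228114), had 22.9, 36.99 and 27.1 CPM in SAS roots, against 1.21, 0.296 and 0.261 CPM in AS roots (5.61 ± 0.59, adjusted p = 0.00065). The log2 difference was 6.71 without AS library 1. Peptide transporter 1 (Gh_A08G0022), an importer of di- and tripeptides, had 35.9, 51.6 and 43.7 CPM in SAS roots, against 1.28, 0.343 and 1.67 CPM in AS roots (5.32 ± 0.52, adjusted p = 0.00056). Neither transporter overlapped between the groups. Among regulators, the ethylene-responsive element binding factor 13 (Gh_D08G0631) had 9.65, 34.4 and 19.1 CPM in SAS roots, against 0.845, 0.405 and 0.139 CPM in AS roots (5.49 ± 0.69, adjusted p = 0.0011). On the log2 scale the difference came to 6.26 without AS library 1. ACC synthase 6, an enzyme that makes the ethylene precursor ACC (Gh_D11G0221), had 9.57, 35.6 and 20.1 CPM in SAS roots, against 0.689, 0.576 and 0.747 CPM in AS roots (5.02 ± 0.5, adjusted p = 0.00058). Its AS values lay close together, and SAS library 1 was the lowest of the SAS values. An MLP-like protein 28 (Gh_Sca005880G01, log2 5.67), a RING/U-box protein (Gh_A13G0825, log2 5.34), the cytochrome P450 715A1 (Gh_A09G1621, log2 5.19) and ribonuclease 1 (Gh_A06G1542, log2 4.78) complete the 10 largest differences upward among genes with a mean CPM of at least 20 in the higher group and 1 gene per description. Ribonuclease 1, an extracellular RNase induced by phosphate lack, had 9.14, 56.04 and 94.97 CPM in SAS roots, against 3.38, 2.04 and 0.382 CPM in AS roots. Leave-one-out fits put the log2 difference at 4.07 without SAS library 3 and 5.46 without AS library 1. The log2 difference of the cytochrome P450 was 5.81 without AS library 1.

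The genes that were lowest in SAS roots relative to AS roots included small secreted proteins, a gluconeogenic enzyme and wall enzymes. A lipid-transfer-type protein (Gh_D10G2502) had 0, 2.32 and 0.356 CPM in SAS roots, against 77.8, 98.8 and 202 CPM in AS roots (log2 -7.14 ± 1.21, adjusted p = 0.0032). On the log2 scale the difference came to -9.46 without SAS library 2. A Stig1-family protein (Gh_A05G1475), a small cysteine-rich secreted protein, had 0.0745, 6.299 and 1.61 CPM in SAS roots, against 71.96, 69.8 and 142 CPM in AS roots (log2 -5.15 ± 1.10, adjusted p = 0.0081). Leave-one-out fits put the log2 difference at -6.81 without SAS library 2. Both were near 0 in SAS library 1 and highest in AS library 3. Phosphoenolpyruvate carboxykinase 1, which turns oxaloacetate into phosphoenolpyruvate (Gh_A12G0739, chromosome A12 from 37180019 to 37183426), had 13.2, 50.2 and 32.8 CPM in SAS roots, against 438, 673 and 683 CPM in AS roots (log2 -4.22 ± 0.5, adjusted p = 0.00091). CK roots had 43.6, 109 and 133 CPM, below every AS value, and CK library 1 lay within the SAS range. Pectin methylesterase 44, which removes methyl groups from wall pectin (Gh_A07G0152), had 0.503, 1.98 and 0.861 CPM in SAS roots, against 22.4, 17.8 and 20.8 CPM in AS roots (log2 -4.19 ± 0.46, adjusted p = 0.00072). The log2 difference was -4.90 without SAS library 2. A peroxidase superfamily gene (Gh_A08G0711) had 3.11, 4.99 and 6.999 CPM in SAS roots, against 109, 57.1 and 51.98 CPM in AS roots (log2 -3.85 ± 0.41, adjusted p = 0.00065), and CK roots had 341, 533 and 382 CPM. The order for that peroxidase was SAS, AS and CK from low to high, with no overlap between any of the 3 groups. Alcohol dehydrogenase 1, the last enzyme of ethanol fermentation (Gh_D11G0605), had 0.503, 1.65 and 2.53 CPM in SAS roots, against 16.1, 27.6 and 20.3 CPM in AS roots (log2 -3.77 ± 0.52, adjusted p = 0.0015). BR enhanced expression 1, a brassinosteroid-responsive transcription factor (Gh_A12G0489, log2 -4.99), an early nodulin-related gene (Gh_D05G0173, log2 -4.96), an auxin efflux carrier (Gh_D05G2765, log2 -4.09) and the ATP-binding cassette protein 14 (Gh_D08G1646, log2 -3.81) were the others of the 10 largest downward under the same limits. Genes of lower level reached larger differences. On the log2 scale the difference of the early nodulin-related gene came to -4.38 without SAS library 1, -5.71 without SAS library 2 and -4.0 without AS library 3. Leave-one-out fits put the log2 difference of the auxin efflux carrier at -4.89 without SAS library 2.

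Under the naming rule the 5 largest gains in mean CPM were an alternative oxidase, given with respiration below, an oxidoreductase, an ABC transporter, a ubiquitin and a cytochrome P450. An NAD(P)-linked oxidoreductase (Gh_A08G1906) had 2542, 4325 and 3875 CPM in SAS roots, against 939, 826 and 1063 CPM in AS roots (log2 1.93 ± 0.31, adjusted p = 0.0025). P-glycoprotein 3, an ABC transporter (Gh_A08G1071), had 3049, 3496 and 3244 CPM in SAS roots, against 809.6, 746 and 1394 CPM in AS roots (log2 1.73 ± 0.32, adjusted p = 0.0047). Ubiquitin 8 (Gh_D13G1489) had 2509.5, 3297 and 3138 CPM in SAS roots, against 1325, 1049.8 and 861 CPM in AS roots (log2 1.47 ± 0.28, adjusted p = 0.0054). None of the 3 genes overlapped between SAS and AS libraries, and each was lower still in CK roots. The cytochrome P450 81D8 (Gh_D05G2506) had 1460.2, 1675 and 1632 CPM in SAS roots, against 424, 311 and 401 CPM in AS roots (log2 2.07 ± 0.24, adjusted p = 0.00085). The 5 largest losses under the same rule were an alcohol dehydrogenase, an aluminium-induced protein, a proton-pumping pyrophosphatase, an aldolase and a peroxidase. The aluminium-induced protein with YGL and LRDR motifs (Gh_D01G0503) had 713, 521 and 946 CPM in SAS roots, against 4234, 5825 and 3337 CPM in AS roots (log2 -2.62 ± 0.36, adjusted p = 0.0015). A peroxidase superfamily gene (Gh_A10G2288) had 245, 350.2 and 267 CPM in SAS roots, against 2500.1, 2529 and 2471.1 CPM in AS roots (log2 -3.12 ± 0.27, adjusted p = 0.00044). The aldolase superfamily gene (Gh_Sca011527G01) had 1167, 955 and 1586 CPM in SAS roots, against 3748, 5039 and 3789 CPM in AS roots (log2 -1.76 ± 0.31, adjusted p = 0.0038). The groups did not overlap in these genes, and CK levels of the aluminium-induced protein and the peroxidase lay between SAS and AS.

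**Figure D2:**
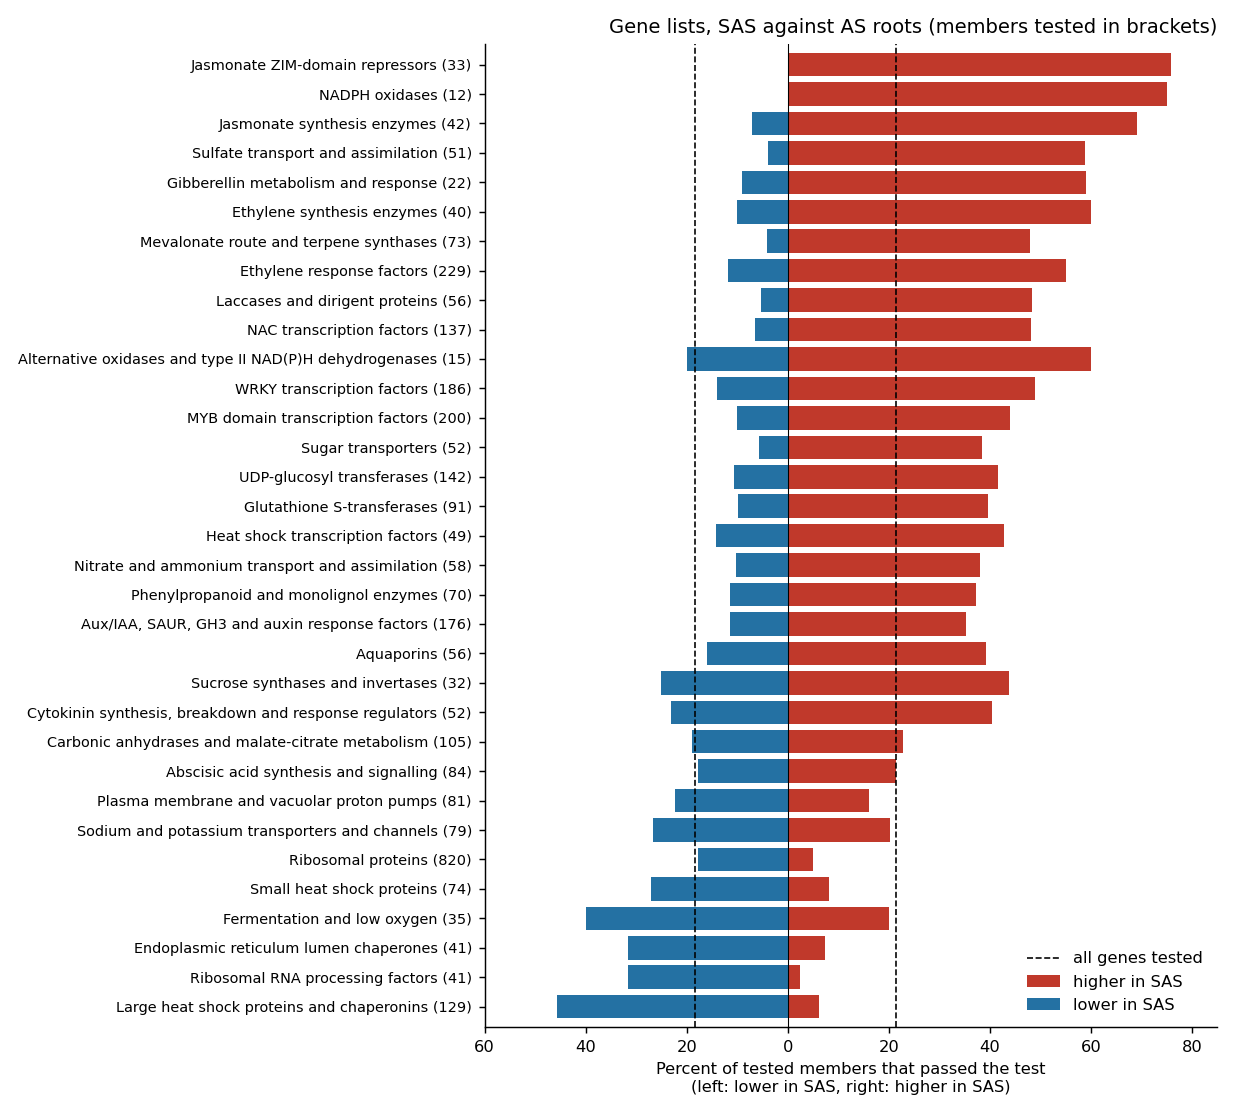
Share of tested members of 33 gene lists that passed the test, upward in red to the right and downward in blue to the left, sorted by the difference between the shares, with the number of members tested in brackets. Dashed lines mark the shares over all genes tested, 21.4% upward and 18.3% downward. Jasmonate ZIM-domain repressors and NADPH oxidases stand at the top with no member lower, and large heat shock proteins and chaperonins stand at the bottom.

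Genes of alternative respiration were mostly higher in SAS roots. On the list of alternative oxidases and the non-pumping NAD(P)H dehydrogenases, 9 of 15 genes tested were higher and 3 lower (median log2 difference 1.27). Both tested copies of alternative oxidase 1A, the stress-inducible form, were higher. The copy on chromosome A12 (Gh_A12G2493, from 87346772 to 87348049) had 2702, 3076 and 3279.6 CPM in SAS roots, against 762, 749.7 and 841 CPM in AS roots (log2 1.94 ± 0.25, adjusted p = 0.0011). The D12 copy (Gh_D12G2621) had 1717, 2359.6 and 2311 CPM in SAS roots, against 389, 317 and 371 CPM in AS roots (log2 2.57 ± 0.26, adjusted p = 0.00061). All 4 genes described as alternative oxidase 2 that were tested were higher, with log2 differences of 1.27 to 2.44. NAD(P)H dehydrogenase B2, which feeds electrons from the outer face of the inner mitochondrial membrane (Gh_A06G1090), had 371, 494 and 469 CPM in SAS roots, against 91.2, 93.5 and 139 CPM in AS roots (log2 2.04 ± 0.25, adjusted p = 0.00099). SAS and AS libraries did not overlap in any of the 3 genes given by library, and both groups stood above CK roots. Not all members moved this way. A pair of genes described only as alternative oxidase family proteins was lower. The copy on A05 (Gh_A05G1491) had 40.1, 35.7 and 54.02 CPM in SAS roots, against 97.2, 119.7 and 92.1 CPM in AS roots (log2 -1.25 ± 0.21, adjusted p = 0.0033). NAD(P)H dehydrogenase B1 (Gh_D04G1427) had 3.85, 5.12 and 5.33 CPM in SAS roots, against 15.4, 10.9 and 10.6 CPM in AS roots (log2 -1.36 ± 0.23, adjusted p = 0.0030). Summed over all 21 members, the list held 6165, 7640.4 and 7791 CPM in SAS roots, against 1817, 1770.1 and 2034 CPM in AS roots, and CK roots held 297, 410.2 and 417 CPM.

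NADPH oxidases, the plasma membrane enzymes that make superoxide outside the cell, also held mostly higher members. Of 12 tested, 9 were higher and 0 lower (median log2 1.62). All 6 genes described as respiratory burst oxidase homologue D were higher, with log2 differences of 1.47 to 2.96. The copy with the largest difference (Gh_A05G1666) had 69.6, 102 and 99.5 CPM in SAS roots, against 13.03, 10.9 and 11.1 CPM in AS roots (log2 2.96 ± 0.21, adjusted p = 0.00040). A respiratory burst oxidase F gene (Gh_A12G2669) had 17.8, 40.1 and 23.6 CPM in SAS roots, against 6.53, 8.29 and 9.65 CPM in AS roots (log2 1.74 ± 0.31, adjusted p = 0.0041), while CK roots had 26.4, 20.8 and 21.8 CPM, so its SAS and CK values overlapped and its AS values were lowest. Neither copy of oxidase homolog B passed the test, at log2 -0.39 and 0.56.

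Ethanol fermentation was split by enzyme. On the list of fermentation and low-oxygen genes, 7 of 35 genes tested were higher and 14 lower (median log2 -0.53). Leaving out single libraries gave 6 lower without SAS library 2 and 8 lower without AS library 2. Of 9 alcohol dehydrogenase 1 genes, 7 were lower and 0 higher. The copy with the largest loss in share of counts (Gh_D02G0733) had 2763, 2006 and 3077 CPM in SAS roots, against 6185, 8592 and 6378 CPM in AS roots (log2 -1.43 ± 0.32, adjusted p = 0.0099). It did not pass without SAS library 2 (adjusted p = 0.051). Pyruvate decarboxylase, the enzyme before it, differed by description. Of 4 genes described as pyruvate decarboxylase-2, 2 were lower and 0 higher, and of 7 described as thiamine pyrophosphate dependent pyruvate decarboxylases, 5 were higher and 0 lower. A gene of that last description (Gh_D08G0005) had 26.5, 70.6 and 45.2 CPM in SAS roots, against 7.83, 0.794 and 0.574 CPM in AS roots (log2 3.95 ± 0.97, adjusted p = 0.014) and was at 0, 0 and 0 CPM in CK roots. On the log2 scale the difference came to 6.12 without AS library 1. Hypoxia-responsive family proteins went both ways. A gene on A13 (Gh_A13G1538) had 65.99, 78.9 and 63.4 CPM in SAS roots, against 11.9, 11.7 and 12.8 CPM in AS roots (log2 2.52 ± 0.17, adjusted p = 0.00038). A gene on A05 (Gh_A05G2403) had 9.74, 13.2 and 9.96 CPM in SAS roots, against 62.9, 73.3 and 83.7 CPM in AS roots (log2 -2.74 ± 0.20, adjusted p = 0.00041). Summed over 48 members the list held 14723, 10442 and 18345 CPM in SAS roots, against 28876, 40783 and 29483 CPM in AS roots, with no overlap, and CK roots held 22473, 23578 and 22951 CPM, between the other groups.

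In sucrose breakdown the number of genes and the total level went opposite ways. Of the sucrose synthases and invertases, 14 of 32 genes tested were higher and 8 lower. The list had 9 higher without AS library 2. The higher genes included neutral and cytosolic invertases, which split sucrose with water, such as cytosolic invertase 2 (Gh_A13G1012) with 174, 152 and 137 CPM in SAS roots, against 57.7, 39.1 and 41.95 CPM in AS roots (log2 1.74 ± 0.22, adjusted p = 0.0010). The lower genes were sucrose synthases, which split it into UDP-glucose and fructose. Sucrose synthase 3 (Gh_A08G1031) had 171, 338 and 602 CPM in SAS roots, against 2527, 2651 and 1257 CPM in AS roots (log2 -2.53 ± 0.51, adjusted p = 0.0062), and 6 of 9 genes described as sucrose synthase 4 were lower and 2 higher. The sucrose synthase 4 gene with the largest difference downward (Gh_D13G2037) had 448, 331 and 451 CPM in SAS roots, against 1252, 1962 and 2051 CPM in AS roots (log2 -2.10 ± 0.29, adjusted p = 0.0015). The 58 members summed to 2970.4, 2955 and 3871 CPM in SAS roots, against 9038, 11178 and 8396 CPM in AS roots. CK roots, at 4375, 5107 and 6000.0 CPM, lay between the groups.

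**Figure D3:**
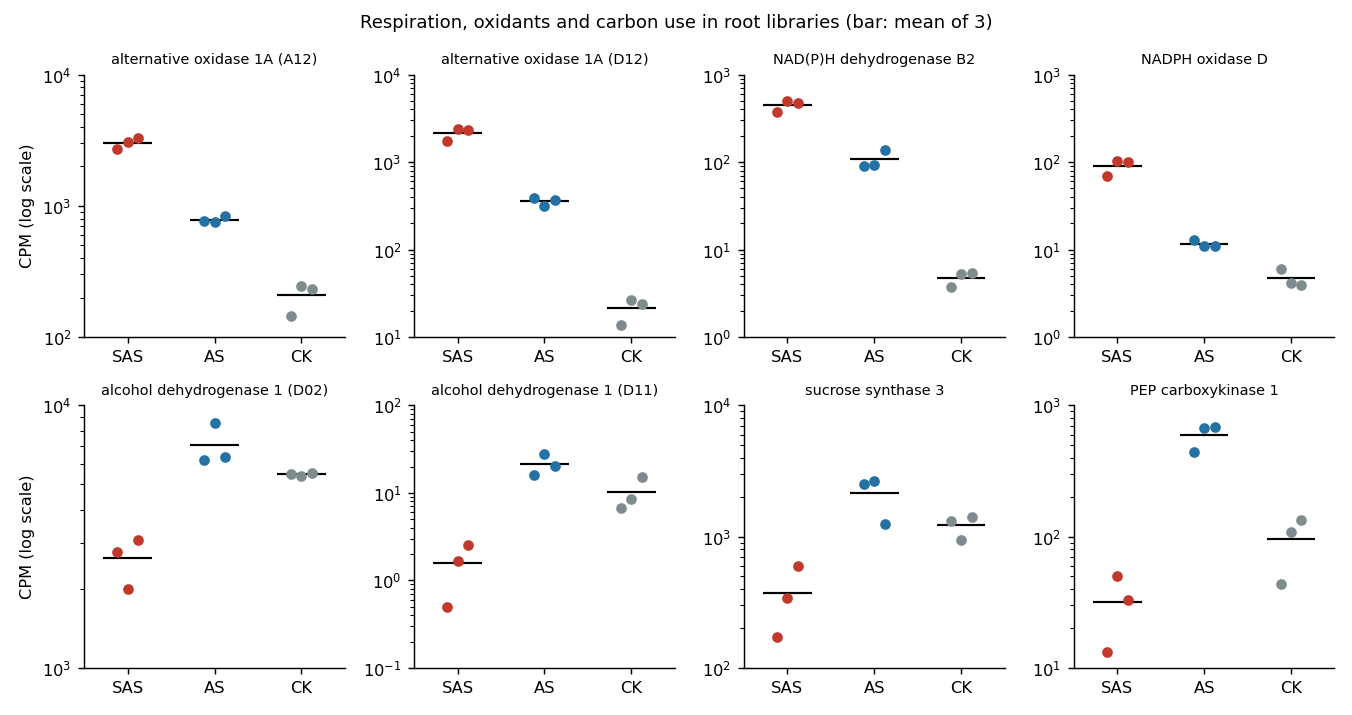
CPM on a log scale in each SAS, AS and CK root library for 8 genes of respiration, oxidant production and carbon use, with a bar at the mean of 3 libraries. The alternative oxidase, dehydrogenase B2 and NADPH oxidase genes are highest in SAS roots, and alcohol dehydrogenase 1, sucrose synthase 3 and phosphoenolpyruvate carboxykinase 1 are highest in AS roots, with no overlap between SAS and AS in any panel.

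Genes for removal of reactive oxygen species went both ways. Of the superoxide dismutases, catalases and ascorbate-glutathione enzymes, 14 of 65 genes tested were higher and 8 lower (median log2 0.17). The shares, 21.5% higher and 12.3% lower, were at or under the 21.4% and 18.3% of all genes tested. Ascorbate peroxidase 1 genes, cytosolic enzymes that reduce hydrogen peroxide with ascorbate, were higher in 3 of 6 cases, and glutathione peroxidase 6 genes in 3 of 4. Glutathione peroxidase 6 on A08 (Gh_A08G2385) had 217, 188 and 114 CPM in SAS roots, against 16.9, 24.1 and 38.02 CPM in AS roots (log2 2.72 ± 0.36, adjusted p = 0.0013). Monodehydroascorbate reductase 1, which recycles ascorbate (Gh_D09G1329), had 593, 635 and 556 CPM in SAS roots, against 184, 222 and 217 CPM in AS roots (log2 1.52 ± 0.20, adjusted p = 0.0013). CK roots had 131, 118 and 106 CPM of the reductase. Genes of that reductase went both ways, with 2 of 4 tested higher and 1 lower. Manganese superoxide dismutase 1, a mitochondrial enzyme (Gh_A05G2383), had 96.4, 99.5 and 197 CPM in SAS roots, against 619, 665 and 432 CPM in AS roots (log2 -2.13 ± 0.34, adjusted p = 0.0026). Of 7 catalase 2 genes, 0 were higher and 1 lower. The whole list summed to 3687, 3739.8 and 3619 CPM in SAS roots, against 3475, 3690.1 and 3117 CPM in AS roots.

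Among enzymes that conjugate or reduce other molecules, more genes were called higher than lower. Of the glutathione S-transferases 36 of 91 genes tested were higher and 9 lower (median log2 0.5). Of the UDP-glucosyl transferases 59 of 142 genes tested were higher and 15 lower (median log2 1.01). Among the 127 of these that did not pass the FPKM filter through 1 group alone, 49 were higher and 12 lower. The transferase TAU 19 (Gh_D13G1617) had 137, 233 and 232 CPM in SAS roots, against 27.8, 32.1 and 37.4 CPM in AS roots (log2 2.63 ± 0.26, adjusted p = 0.00060), and CK roots had 0.736, 1.702 and 1.49 CPM. UDP-glucosyl transferase 74B1, known for a step of glucosinolate synthesis (Gh_D01G1313), had 157, 158 and 121 CPM in SAS roots, against 8.5, 11.9 and 7.94 CPM in AS roots (log2 3.94 ± 0.24, adjusted p = 0.00038). Neither gene overlapped between the groups. Among thioredoxins, glutaredoxins and peroxiredoxins 39 of 158 genes tested were higher and 20 lower, a share higher of 24.7% that lay close to the 21.4% of all genes. Among the 148 of these that did not pass the FPKM filter through 1 group alone, 32 were higher and 17 lower. The list had 13 lower without SAS library 2 and 24 higher and 13 lower without AS library 2. NADPH-dependent thioredoxin reductase A (Gh_A11G2988) had 173, 95.8 and 117 CPM in SAS roots, against 23.1, 25.5 and 38.96 CPM in AS roots (log2 2.14 ± 0.30, adjusted p = 0.0015). Peroxidase superfamily genes, most of them for secreted enzymes of the wall, went both ways, and 17 of 69 genes tested were higher and 11 lower. Among the 64 of these that did not pass the FPKM filter through 1 group alone, 14 were higher and 10 lower. The list had 7 lower without SAS library 3 and 7 lower without AS library 2. Their summed level was lower, at 2133, 2718 and 2312 CPM in SAS roots, against 5079.7, 4676 and 4672 CPM in AS roots, and CK roots had 4114, 4935 and 5205 CPM. Peroxidase 2 (Gh_A08G2028) was an exception to that total, with 315, 259 and 274 CPM in SAS roots, against 66.8, 65.4 and 82.2 CPM in AS roots (log2 1.98 ± 0.20, adjusted p = 0.00058).

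Chaperone genes that passed the test were mostly lower in SAS roots, while genes of the heat shock factors were more often higher. Of the large heat shock proteins and chaperonins 8 of 129 genes tested were higher and 59 lower, a median log2 of -0.62. The list had 4 higher without SAS library 2, 5 higher without AS library 1 and 4 higher without AS library 2. Lower members included 5 of 6 HSP101 genes, disaggregases of heat-damaged protein, and 16 of 34 chaperonins of the TCP-1/cpn60 family, which fold newly made proteins. Of 11 genes described as Hsp 70 family proteins 8 were lower and 0 higher, and of 8 more whose description differs only in a capital letter 2 were lower and 2 higher. Heat shock protein 90.1 (Gh_D03G1421) had 7.62, 5.28 and 5.67 CPM in SAS roots, against 22.1, 42.7 and 44.5 CPM in AS roots (log2 -2.56 ± 0.30, adjusted p = 0.00087). CK roots had 0.628, 0.920 and 2.19 CPM, below both groups. In contrast, chaperonin-60alpha (Gh_A05G0916), of plastids, had 7.36, 10.2 and 17.8 CPM in SAS roots, against 59.3, 62.1 and 35.7 CPM in AS roots (log2 -2.15 ± 0.36, adjusted p = 0.0030) and 37.7, 37.1 and 38.6 CPM in CK roots, above every SAS value and just above AS library 3. A member that went the other way, a heat shock protein 70 gene (Gh_D01G2180), had 214, 325 and 230.0 CPM in SAS roots, against 77.1, 84.02 and 102 CPM in AS roots (log2 1.55 ± 0.23, adjusted p = 0.0020). Of the small heat shock proteins 6 of 74 genes tested were higher and 20 lower. The list had 13 lower without SAS library 1, 3 higher without SAS library 2 and 10 lower without AS library 2. Their summed level did not separate the groups, at 1586, 2137 and 1958 CPM in SAS roots, against 1548, 2189 and 1953 CPM in AS roots. Among endoplasmic reticulum chaperones 3 of 41 genes tested were higher and 13 lower, with all 6 calreticulin 1a genes, calcium-binding chaperones, among the lower. The list had 1 higher without SAS library 2, 1 higher without AS library 1 and 0 higher without AS library 2. Protein disulfide isomerase PDI-like 1-2 (Gh_D01G1856) had 10.2, 12.96 and 15.8 CPM in SAS roots, against 103, 100.1 and 115 CPM in AS roots (log2 -3.03 ± 0.21, adjusted p = 0.00038), and CK roots had 170.2, 233 and 236 CPM. Genes of this isomerase went both ways, with 1 of 3 tested lower and 1 higher (log2 0.92). Of the heat shock factors 21 of 49 genes tested were higher and 7 lower (median log2 0.58). Factor 4, also known as HSFB1, was higher in 7 of 8 genes and factor C1 in 4 of 4. Heat shock factor A3 (Gh_A09G2455), a late activator of the heat response, had 68.3, 113 and 129.5 CPM in SAS roots, against 20.3, 13.4 and 28.2 CPM in AS roots (log2 2.33 ± 0.34, adjusted p = 0.0018). A factor A2 gene (Gh_A07G0115) had 7.06, 4.61 and 4.304 CPM in SAS roots, against 17.4, 25.5 and 13.5 CPM in AS roots (log2 -1.82 ± 0.30, adjusted p = 0.0027). The 5 tested genes of factor A2 went both ways, with 3 lower and 1 higher and log2 differences from -1.82 to 6.15.

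Ethylene synthesis genes that passed the test were mostly higher in SAS roots. Of the ethylene synthesis enzymes 24 of 40 genes tested were higher and 4 lower (median log2 1.38). The list also takes in S-adenosylmethionine synthetases, so it is wider than ACC synthase and ACC oxidase. It summed to 2306, 2829 and 2623 CPM in SAS roots, against 1824, 1769 and 1543 CPM in AS roots. CK roots held 2933, 3660 and 2967 CPM, above both groups. ACC synthase, which commits methionine to ethylene, was higher in 5 of 7 genes described as synthase 6 and in both genes of synthase 1. Both genes that carry the description ACC synthase 10 were also higher, and their activity was not tested. ACC synthase 1 on A11 (Gh_A11G0831) had 115, 169 and 145 CPM in SAS roots, against 18.6, 15.03 and 13.7 CPM in AS roots (log2 3.18 ± 0.23, adjusted p = 0.00039), and CK roots had 0.169, 0.412 and 0.246 CPM. The last step is made by ACC oxidase, and 11 of 14 genes described as ethylene-forming enzyme were higher and 2 lower. The ethylene-forming enzyme on D07 (Gh_D07G1899) had 12.7, 18.99 and 10.9 CPM in SAS roots, against 0.814, 0.950 and 1.79 CPM in AS roots (log2 3.58 ± 0.37, adjusted p = 0.00063). Both genes described as ACC oxidase 1 were lower. The D07 copy (Gh_D07G0107) had 79.5, 69.5 and 195 CPM in SAS roots, against 438, 469.6 and 363 CPM in AS roots (log2 -1.88 ± 0.40, adjusted p = 0.0080), with AS roots near the 467, 494 and 398 CPM of CK roots. Leave-one-out fits put the log2 difference at -2.51 without SAS library 3. Of the ethylene response factors 126 of 229 genes tested were higher and 27 lower (median log2 1.03). Among the 204 of these that did not pass the FPKM filter through 1 group alone, 105 were higher and 23 lower. The list had 17 lower without AS library 2. Ethylene response factor 1 (Gh_D05G1501), a junction of ethylene and jasmonate signals, had 3.84, 9.58 and 6.23 CPM in SAS roots, against 0.360, 0.171 and 0 CPM in AS roots (log2 5.17 ± 0.81, adjusted p = 0.0023). The log2 difference was 6.18 without AS library 1. Among the lower members, the ethylene responsive element binding factor 1 (Gh_D07G0442) had 83.96, 51.3 and 75.9 CPM in SAS roots, against 245, 278 and 156 CPM in AS roots (log2 -1.69 ± 0.29, adjusted p = 0.0032).

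Jasmonate genes were mostly higher in SAS roots, repressors and synthesis enzymes alike. Of the jasmonate ZIM-domain (JAZ) repressors, which jasmonate itself induces, 25 of 33 genes tested were higher and 0 lower (median log2 1.76). All 6 genes of JAZ 8 and all 4 of JAZ 6 were higher. JAZ 3 on A01 (Gh_A01G1225) had 164, 229 and 194 CPM in SAS roots, against 19.1, 19.8 and 17.03 CPM in AS roots (log2 3.39 ± 0.21, adjusted p = 0.00038), and CK roots had 18.6, 28.04 and 37.98 CPM, near the AS level. JAZ 6 on D05 (Gh_D05G1332) had 7.54, 19.3 and 16.2 CPM in SAS roots, against 1.19, 1.07 and 1.11 CPM in AS roots (log2 3.67 ± 0.36, adjusted p = 0.00058). Neither repressor overlapped between SAS and AS libraries. Of the jasmonate synthesis enzymes 29 of 42 genes tested were higher and 3 lower (median log2 1.36). Allene oxide synthase was higher in 10 of 13 genes and allene oxide cyclase 4 in 6 of 7. Allene oxide cyclase 4 on D08 (Gh_D08G0414) had 217, 282 and 197 CPM in SAS roots, against 9.56, 23.2 and 15.1 CPM in AS roots (log2 3.86 ± 0.36, adjusted p = 0.00050). The summed level of the synthesis list did not follow its counts, at 9338, 8745 and 9342 CPM in SAS roots, against 12136, 12201 and 8778 CPM in AS roots. The list takes in lipoxygenases, which oxidize fatty acids, by description, whether or not they serve jasmonate synthesis. Of 5 genes described as lipoxygenase 1, 2 were higher and 1 lower. The lipoxygenase 1 gene on A13 (Gh_A13G0888) held a large part of the list's total, with 2158, 1843 and 2111 CPM in SAS roots, against 4368, 4523 and 3088 CPM in AS roots (log2 -0.97 ± 0.28, adjusted p = 0.027). It did not pass without SAS library 1 (adjusted p = 0.050), SAS library 2 (adjusted p = 0.11), SAS library 3 (adjusted p = 0.069), AS library 1 (adjusted p = 0.076) or AS library 2 (adjusted p = 0.088).

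Growth hormone genes that passed the test were more often higher, and most of the called gibberellin genes were those of breakdown. Of the gibberellin genes 13 of 22 genes tested were higher and 2 lower (median log2 1.51). Gibberellin 2-oxidases, which inactivate gibberellin, were higher in 5 of 6 genes of oxidase 6, 3 of 4 of oxidase 1 and both of oxidase 8. Gibberellin 2-oxidase 6 on D07 (Gh_D07G1284) had 40.7, 46.3 and 36.7 CPM in SAS roots, against 6.14, 5.36 and 4.34 CPM in AS roots (log2 2.97 ± 0.20, adjusted p = 0.00038). Gibberellin 3-oxidase 1, which makes the active hormone (Gh_A07G0328), had 0.633, 0.926 and 0.692 CPM in SAS roots, against 8.48, 6.26 and 1.67 CPM in AS roots (log2 -2.86 ± 0.56, adjusted p = 0.0058). The groups did not overlap in either gene. Of the auxin genes 62 of 176 genes tested were higher and 20 lower. Among the 160 of these that did not pass the FPKM filter through 1 group alone, 49 were higher and 18 lower. GH3 proteins, which conjugate auxin and other acids to amino acids, were higher in 14 of 21 genes and lower in 1, and SAUR genes, rapid auxin responders, in 18 of 53 and lower in 4. A GH3 gene on D04 (Gh_D04G0262) had 184, 327 and 276 CPM in SAS roots, against 23.4, 18.5 and 18.6 CPM in AS roots (log2 3.70 ± 0.27, adjusted p = 0.00041), with AS and CK roots at like levels, since CK had 14.1, 21.8 and 18.7 CPM. Of the cytokinin genes 21 of 52 genes tested were higher and 12 lower, with all 4 cytokinin response factor 5 genes among the higher and both copies each of the response regulators 4 and 6 among the lower. Cytokinin response factor 5 on D07 (Gh_D07G1396) had 23.3, 41.9 and 36.5 CPM in SAS roots, against 4.26, 3.58 and 4.95 CPM in AS roots (log2 2.99 ± 0.26, adjusted p = 0.00045). Response regulator 6, a feedback inhibitor of cytokinin signals (Gh_A09G2398), had 8.55, 18.8 and 28.3 CPM in SAS roots, against 85.2, 116 and 54.2 CPM in AS roots (log2 -2.20 ± 0.45, adjusted p = 0.0067). Abscisic acid genes were near the background, and 18 of 84 genes tested were higher and 15 lower (median log2 -0.14). Among the 73 of these that did not pass the FPKM filter through 1 group alone, 10 were higher and 14 lower. Within that list zeaxanthin epoxidase, of abscisic acid synthesis (Gh_A11G1774), had 5.51, 7.06 and 5.31 CPM in SAS roots, against 1.22, 1.18 and 1.703 CPM in AS roots (log2 2.12 ± 0.26, adjusted p = 0.00095). The PP2C phosphatase gene highly ABA-induced 1 (Gh_A02G0999) had 1.86, 1.63 and 2.23 CPM in SAS roots, against 8.58, 8.57 and 7.47 CPM in AS roots (log2 -2.10 ± 0.21, adjusted p = 0.00060). The other of the 2 tested genes so described was higher (log2 0.68).

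**Figure D4:**
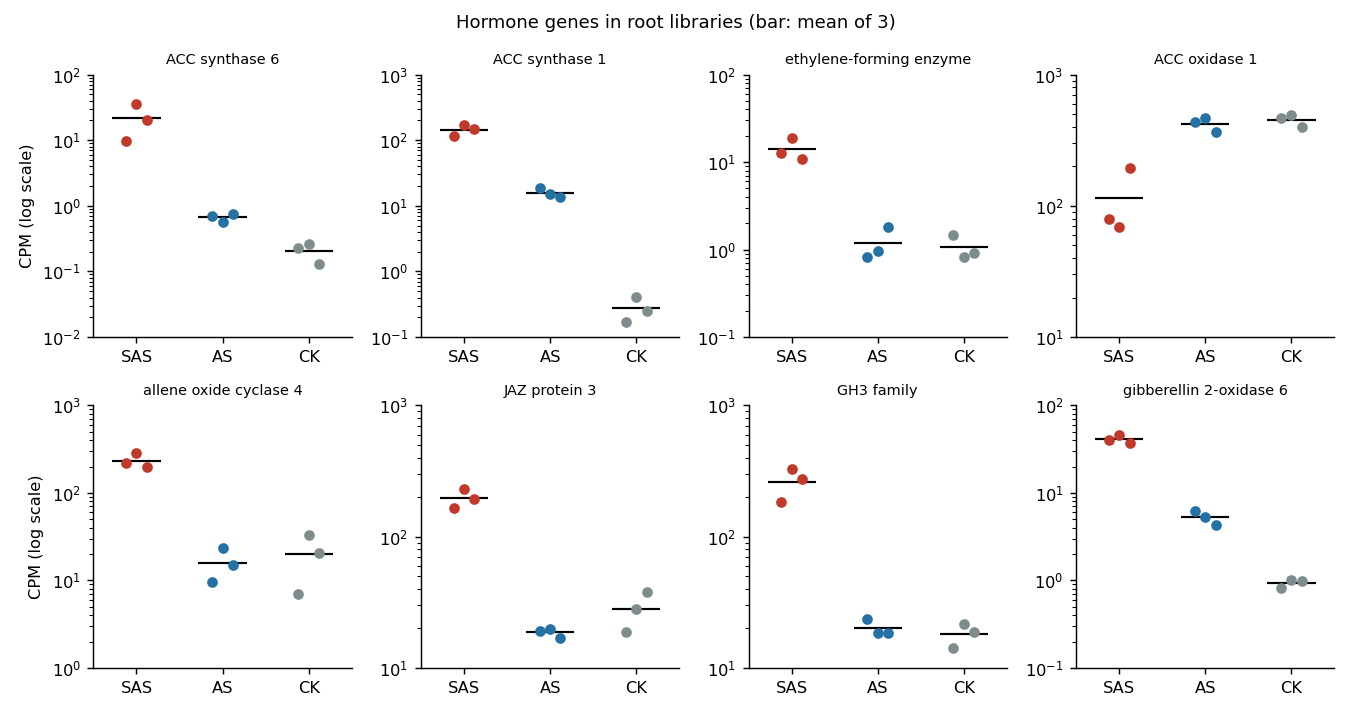
CPM on a log scale in each SAS, AS and CK root library for 8 genes of hormone synthesis, breakdown and response, with a bar at the mean of 3 libraries. ACC oxidase 1 is lower in SAS roots than in AS roots, and the other genes are higher, with no overlap between SAS and AS in any panel.

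Transcription factor families had higher shares of higher members than the genes tested as a whole. Of the WRKY factors, known from defence and stress, 91 of 186 genes tested were higher and 26 lower (median log2 0.71). Among the 177 of these that did not pass the FPKM filter through 1 group alone, 86 were higher and 23 lower. The list had 17 lower without AS library 1 and 15 lower without AS library 2. WRKY 3 (Gh_A08G1051) had 36.2, 58.7 and 33.8 CPM in SAS roots, against 5.34, 4.41 and 4.05 CPM in AS roots (log2 3.22 ± 0.26, adjusted p = 0.00043). WRKY 70 (Gh_D13G0071), a node of salicylate signalling, had 4.21, 8.86 and 4.87 CPM in SAS roots, against 18.3, 17.9 and 18.8 CPM in AS roots (log2 -1.62 ± 0.28, adjusted p = 0.0037). The WRKY list summed to 17442, 24062 and 22969 CPM in SAS roots, against 12389, 12917 and 11624 CPM in AS roots, and CK roots held 4801, 6031 and 6823 CPM. Of the NAC factors 66 of 137 genes tested were higher and 9 lower (median log2 0.73). Among the 128 of these that did not pass the FPKM filter through 1 group alone, 58 were higher and 8 lower. A NAC gene on A05 (Gh_A05G3310) had 471, 722 and 585 CPM in SAS roots, against 65.2, 74.8 and 113 CPM in AS roots (log2 2.81 ± 0.30, adjusted p = 0.00065), and CK roots had 12.9, 19.00 and 19.9 CPM. Of the MYB factors 88 of 200 genes tested were higher and 20 lower (median log2 0.66). Among the 182 of these that did not pass the FPKM filter through 1 group alone, 75 were higher and 18 lower. The list had 11 lower without SAS library 2, 12 lower without SAS library 3, 12 lower without AS library 1 and 9 lower without AS library 2. MYB 93, a root regulator of endodermal suberin and lateral root formation (Gh_A02G1369), had 10.6, 23.00 and 21.9 CPM in SAS roots, against 1.97, 0.950 and 2.19 CPM in AS roots (log2 3.44 ± 0.41, adjusted p = 0.00093), and CK roots had 0, 0.0549 and 0 CPM. SAS and AS libraries did not overlap in the WRKY, NAC and MYB genes named here.

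Genes of sulfur and nitrogen uptake and assimilation that passed the test were mostly higher. Of the sulfate genes 30 of 51 genes tested were higher and 2 lower (median log2 0.93). The list had 0 lower without SAS library 3, 0 lower without AS library 1, 1 lower without AS library 2 and 6 lower without AS library 3. The higher genes included both ATP sulfurylase 1 genes, all 3 APS reductase 3 genes, all 4 sulfite reductase genes and all 4 serine acetyltransferase 2;2 genes. Other parts of the route were called less often. O-acetylserine (thiol) lyase A1 was higher in 1 of 5 genes and cysteine synthase D1 in 1 of 3. Serine acetyltransferase 3;2 was lower in 1 of 2. Sulfate transporter 1;3 had 2 of 5 genes higher and 1 lower (median log2 -0.98), and transporter 1;1 did not pass (log2 -0.88). Sulfate transporter 3;5 (Gh_A05G0155), a partner in moving sulfate toward the shoot, had 17.2, 18.3 and 21.8 CPM in SAS roots, against 3.16, 0.623 and 0.400 CPM in AS roots (log2 3.77 ± 0.70, adjusted p = 0.0045). Leave-one-out fits put the log2 difference at 5.23 without AS library 1. Response to low sulfur 1 (Gh_A08G0938), a marker of sulfur lack, had 51.3, 139 and 135 CPM in SAS roots, against 13.4, 11.3 and 6.15 CPM in AS roots (log2 3.39 ± 0.45, adjusted p = 0.0013), and CK roots had 2.27, 1.08 and 1.54 CPM. The sulfate list summed to 2396, 2930.4 and 3066 CPM in SAS roots, against 1290.1, 1246 and 1095 CPM in AS roots, and CK roots to 1002, 667 and 654 CPM. Of the nitrate and ammonium genes 22 of 58 genes tested were higher and 6 lower (median log2 0.73). Among the 51 of these that did not pass the FPKM filter through 1 group alone, 18 were higher and 4 lower. Nitrate transporter 1:2 on D06 (Gh_D06G1472), a low-affinity importer, had 10.4, 16.2 and 10.7 CPM in SAS roots, against 0.329, 1.09 and 0.799 CPM in AS roots (log2 4.07 ± 0.43, adjusted p = 0.00066). The lower genes were of assimilation and ammonium uptake, although genes of ammonium transporters 1;1 and 2 were among the higher. NADH-dependent glutamate synthase 1 (Gh_A12G2272) had 236, 185 and 245 CPM in SAS roots, against 699.7, 809 and 708 CPM in AS roots (log2 -1.73 ± 0.22, adjusted p = 0.0011). Asparagine synthetase 3 (Gh_A12G0804) had 12.4, 20.8 and 22.4 CPM in SAS roots, against 57.2, 71.3 and 97.4 CPM in AS roots (log2 -2.02 ± 0.29, adjusted p = 0.0017). Both ammonium transporter 1;2 genes were lower. The nitrogen list as a whole held like totals, 4255, 5356 and 5160.1 CPM in SAS roots, against 5206, 4949 and 4874 CPM in AS roots.

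Phosphate genes differed between the SAS libraries themselves. Of the phosphate starvation genes 16 of 88 genes tested were higher and 9 lower, a called share of 28.4% that is under the 39.7% of all genes. Their summed level was 2696, 7120.4 and 8245 CPM in SAS roots, against 5681, 4785 and 5278 CPM in AS roots. SAS library 1 lay below the AS range and the other SAS libraries above it. The list had 37 higher and 5 lower without SAS library 1, 9 higher and 5 lower without SAS library 2, 9 higher without SAS library 3, 10 higher and 4 lower without AS library 1 and 6 higher and 4 lower without AS library 2. Phosphate transporter 3;2, of the mitochondrial membrane (Gh_D07G0478), had 141, 197 and 185 CPM in SAS roots, against 25.1, 18.5 and 28.8 CPM in AS roots (log2 2.85 ± 0.24, adjusted p = 0.00044), with no overlap, and CK roots had 0.536, 0.810 and 0.478 CPM. A gene of purple acid phosphatase 26, the main vacuolar and secreted acid phosphatase (Gh_D13G2476), had 6.67, 5.43 and 6.21 CPM in SAS roots, against 43.1, 40.5 and 36.8 CPM in AS roots (log2 -2.72 ± 0.17, adjusted p = 0.00038), also with no overlap. It was the only gene called of 7 tested with that description, whose median log2 was -0.30. Iron genes went both ways, and 7 of 21 genes tested were higher and 7 lower. Among the 18 of these that did not pass the FPKM filter through 1 group alone, 4 were higher and 7 lower. The list had 3 higher without SAS library 2 and 3 higher without AS library 2. FER-like regulator of iron uptake, the transcription factor that switches on the root's iron acquisition (Gh_D05G0858), had 13.6, 21.1 and 23.2 CPM in SAS roots, against 3.94, 4.33 and 3.68 CPM in AS roots (log2 2.27 ± 0.24, adjusted p = 0.00063). Ferric reduction oxidase 2, the root surface iron reductase (Gh_D11G0960), was below the CPM minimum of the naming rule and is named with its values known. It had 4.49, 4.12 and 3.63 CPM in SAS roots, against 0.125, 0.171 and 0.209 CPM in AS roots (log2 4.59 ± 0.32, adjusted p = 0.00038). Ferritin 4, an iron store of plastids (Gh_D10G2394), had 17.5, 12.3 and 10.9 CPM in SAS roots, against 96.3, 89.9 and 33.7 CPM in AS roots (log2 -2.43 ± 0.40, adjusted p = 0.0028), and AS library 3 lay closest to the SAS values. NRAMP 1, an iron and manganese importer (Gh_D05G1139), had 6.26, 15.8 and 13.98 CPM in SAS roots, against 49.03, 57.2 and 42.4 CPM in AS roots (log2 -2.04 ± 0.33, adjusted p = 0.0027).

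Potassium transport genes differed in direction by transporter. Of the sodium and potassium transporters and channels 16 of 79 genes tested were higher and 21 lower (median log2 -0.11). Among the 68 of these that did not pass the FPKM filter through 1 group alone, 7 were higher and 19 lower. The list had 11 lower without SAS library 3, 10 lower without AS library 1 and 11 lower without AS library 2. That list held 9 genes that reached an FPKM of 1 in SAS roots alone. The counts by transporter below do not leave out genes that passed through 1 group. All 3 HAK5 genes tested were higher, with log2 differences of 2.52 to 6.0. The high-affinity K+ transporter 1, HKT1, which withdraws sodium from the xylem (Gh_A04G1216), had 9.79, 5.75 and 5.56 CPM in SAS roots, against 0, 0 and 0.139 CPM in AS roots and an adjusted p of 0.00085. Its fitted difference is not given, because 2 AS libraries held no counts and the fit then depends on the added prior count. The stelar K+ outward rectifier, which loads potassium into the xylem, was lower in 3 of 4 genes, and the channel K+ transporter 1, a main route of potassium entry, in 4 of 6 and higher in 1. The rectifier on D05 (Gh_D05G1041) had 85.9, 59.3 and 97.3 CPM in SAS roots, against 566, 460.3 and 220.0 CPM in AS roots (log2 -2.36 ± 0.38, adjusted p = 0.0025). AS library 3 was the lowest of the AS values and still above every SAS value. The channel K+ transporter 1 on D06 (Gh_D06G0555) had 9.404, 9.53 and 12.8 CPM in SAS roots, against 55.1, 58.7 and 33.2 CPM in AS roots (log2 -2.21 ± 0.26, adjusted p = 0.00085).

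Proton pumps held a smaller share of counts in SAS roots, although their members went both ways. Of the plasma membrane and vacuolar pumps 13 of 81 genes tested were higher and 18 lower (median log2 0.05, and -0.01 under plain library-total scaling). Among the 75 of these that did not pass the FPKM filter through 1 group alone, 9 were higher and 16 lower. The list had 11 lower without SAS library 2 and 8 higher and 10 lower without AS library 2. The list summed to 3797, 4232 and 5515 CPM in SAS roots, against 9819, 10163 and 8802 CPM in AS roots, and CK roots to 4381, 4296 and 4780.1 CPM. The proton-pumping pyrophosphatase of the vacuole, coded by 17 tested genes of which 5 were higher and 6 lower, carried most of the total in AS roots through its copies on A08 and D08. The D08 copy (Gh_D08G2187) had 391, 525 and 1144 CPM in SAS roots, against 3231, 3597 and 3209.5 CPM in AS roots (log2 -2.28 ± 0.43, adjusted p = 0.0047). The A08 copy (Gh_A08G1827) had 303, 571 and 1275 CPM in SAS roots, against 3649.8, 3983 and 2746 CPM in AS roots (log2 -2.27 ± 0.52, adjusted p = 0.010). The log2 difference of the A08 copy was -2.99 without SAS library 3. SAS library 3 was the highest of the SAS values in both copies, and CK levels were near the SAS range. H+-ATPase 1 of the plasma membrane appeared on both sides. The A06 gene (Gh_A06G0960) had 225, 169 and 196 CPM in SAS roots, against 67.3, 75.6 and 122 CPM in AS roots (log2 1.15 ± 0.26, adjusted p = 0.011). The D05 gene (Gh_D05G0041) had 24.1, 42.8 and 117 CPM in SAS roots, against 205, 188 and 193 CPM in AS roots (log2 -1.67 ± 0.51, adjusted p = 0.032). The D05 gene did not pass without SAS library 2 (adjusted p = 0.11), AS library 1 (adjusted p = 0.070), AS library 2 (adjusted p = 0.075) or AS library 3 (adjusted p = 0.056) and had a log2 difference of -2.55 without SAS library 3.

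Carbonic anhydrases, which interconvert carbon dioxide and bicarbonate, divided by class. Higher were 3 of 3 genes of alpha carbonic anhydrase 7, 3 of 3 of beta carbonic anhydrase 5, 2 of 2 of beta carbonic anhydrase 4 and 3 of 6 of carbonic anhydrase 2, with none of these lower. The gamma type is a part of mitochondrial complex I, and 3 of 6 genes of gamma carbonic anhydrase 1 and 2 of 4 of gamma carbonic anhydrase-like 2 were lower, with none higher. Beta carbonic anhydrase 5 (Gh_A05G1879) had 82.4, 116 and 99.03 CPM in SAS roots, against 34.9, 13.7 and 11.3 CPM in AS roots (log2 2.31 ± 0.42, adjusted p = 0.0044), and CK roots had 2.77, 1.85 and 2.68 CPM. Leave-one-out fits put the log2 difference at 3.0 without AS library 1. Organic acid enzymes on the same list included phosphoenolpyruvate carboxylase 3 (Gh_A01G0390), which fixes bicarbonate into oxaloacetate, with 62.6, 192 and 87.8 CPM in SAS roots, against 8.58, 5.51 and 5.34 CPM in AS roots (log2 4.14 ± 0.46, adjusted p = 0.00074). The log2 difference was 3.54 without SAS library 2. NADP-malic enzyme 4 (Gh_A10G0579), which turns malate into pyruvate, had 54.2, 53.8 and 51.2 CPM in SAS roots, against 233.5, 261 and 335 CPM in AS roots (log2 -2.38 ± 0.21, adjusted p = 0.00045). Over the whole list 24 of 105 genes tested were higher and 20 lower, near the background. Among the 100 of these that did not pass the FPKM filter through 1 group alone, 21 were higher and 20 lower. The list had 13 lower without SAS library 1, 9 lower without AS library 1 and 9 lower without AS library 2.

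Water channel and sugar carrier genes that passed the test were more often higher than lower. Of the aquaporins 22 of 56 genes tested were higher and 9 lower (median log2 0.53), with 6 of 7 genes of plasma membrane intrinsic protein 2 among the higher. Among the 47 of these that did not pass the FPKM filter through 1 group alone, 14 were higher and 9 lower. The lower members included both tested copies of the tonoplast intrinsic proteins 2;2 and 2;3. Protein 2;3 on A03 (Gh_A03G0083) had 71.1, 55.7 and 71.7 CPM in SAS roots, against 511, 401 and 110.4 CPM in AS roots (log2 -2.37 ± 0.5, adjusted p = 0.0077). The summed level of 118 aquaporins was 1480.0, 1577 and 1639 CPM in SAS roots, against 3249, 3251 and 1766 CPM in AS roots, so all 3 SAS values lay below the AS range and AS library 3 was close to them. Of the sugar transporters 20 of 52 genes tested were higher and 3 lower. That list held 10 genes that reached an FPKM of 1 in SAS roots alone. Among the 41 that did not pass the FPKM filter through 1 group alone, 10 were higher and 3 lower. Over all genes tested of that kind, 19.5% were higher and 17.4% lower. The family counts below include genes that passed through 1 group. The list had 1 lower without SAS library 3 and 0 lower without AS library 2. MtN3 family (SWEET) genes, which let sugar leave cells, were higher in 10 of 12 cases, and sucrose-proton symporter 2, a phloem loader, in 4 of 4. The symporter on A05 (Gh_A05G2131) had 7.63, 10.2 and 10.9 CPM in SAS roots, against 0.986, 0.919 and 0.521 CPM in AS roots (log2 3.56 ± 0.30, adjusted p = 0.00044). Polyol/monosaccharide transporter 5 (Gh_A03G1574) had 101.1, 137 and 104 CPM in SAS roots, against 17.4, 12.9 and 17.97 CPM in AS roots (log2 2.83 ± 0.22, adjusted p = 0.00041).

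**Figure D5:**
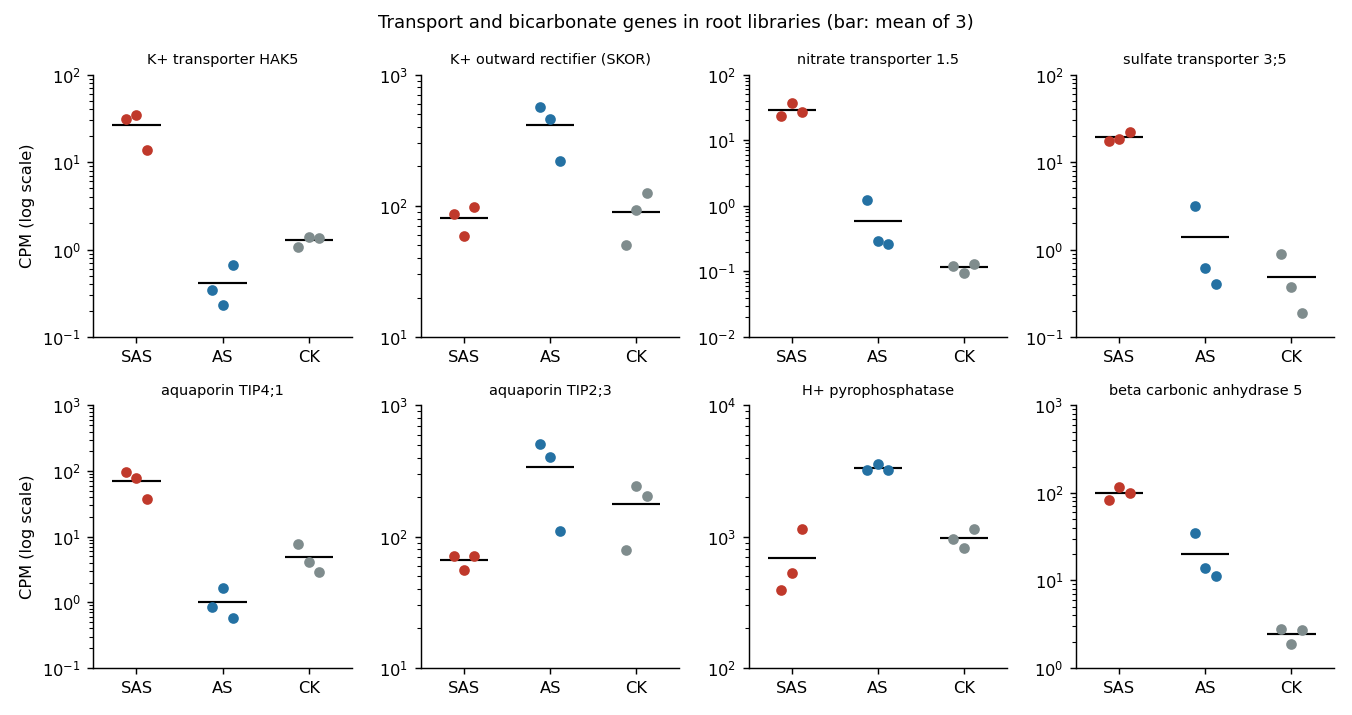
CPM on a log scale in each SAS, AS and CK root library for 8 genes of ion, water and proton transport and bicarbonate conversion, with a bar at the mean of 3 libraries. The K+ outward rectifier, the aquaporin TIP2;3 and the H+ pyrophosphatase are lower in SAS roots than in AS roots, and the other genes are higher, with no overlap between SAS and AS in any panel.

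Terpene, lignan and wall genes were also more often higher. On the list of the mevalonate route and terpene synthases 35 of 73 genes tested were higher and 3 lower (median log2 0.84). Among the 67 of these that did not pass the FPKM filter through 1 group alone, 29 were higher and 3 lower. The list had 23 higher without AS library 2. HMG-CoA reductase 1, the rate-setting enzyme of the mevalonate route, was higher in 9 of 14 genes and terpene synthase 21 in 11 of 15. Terpene synthase 21 on A04 (Gh_A04G1290) had 11.02, 13.3 and 9.96 CPM in SAS roots, against 0.955, 0.545 and 0.417 CPM in AS roots (log2 4.15 ± 0.34, adjusted p = 0.00043). The summed level was 6053, 7872 and 6798 CPM in SAS roots, against 3069.9, 3495 and 4840.1 CPM in AS roots, and CK roots, with 8600.5, 13559 and 10914 CPM, were above both. Of the laccases and dirigent proteins 27 of 56 genes tested were higher and 3 lower, and 23 of 36 dirigent-like genes, which guide the coupling of monolignols, were higher and 1 lower. Of the phenylpropanoid and monolignol enzymes 26 of 70 genes tested were higher and 8 lower. Among the 64 of these that did not pass the FPKM filter through 1 group alone, 22 were higher and 6 lower. The list had 5 lower without SAS library 2 and 17 higher without AS library 2. The ligase 4-coumarate:CoA ligase 1 (Gh_D05G1366) had 50.8, 43.8 and 45.8 CPM in SAS roots, against 9.91, 10.50 and 19.1 CPM in AS roots (log2 1.83 ± 0.27, adjusted p = 0.0018), where CK roots had 38.3, 29.6 and 30.8 CPM. Of the cellulose synthases and arabinogalactan proteins 26 of 65 genes tested were higher and 6 lower (median log2 0.70). Among the 60 of these that did not pass the FPKM filter through 1 group alone, 23 were higher and 6 lower. Cellulose synthase like G1 (Gh_D02G0410) had 716, 945 and 672 CPM in SAS roots, against 102, 71.1 and 80.4 CPM in AS roots (log2 3.20 ± 0.26, adjusted p = 0.00043), and CK roots had 2.498, 5.52 and 2.25 CPM.

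Wall-loosening genes moved in both directions. Of the expansins and xyloglucan endotransglucosylases 14 of 48 genes tested were higher and 12 lower. Among the 40 of these that did not pass the FPKM filter through 1 group alone, 8 were higher and 10 lower. Expansin-like B1 on D08 (Gh_D08G1775) had 19.9, 24.1 and 26.9 CPM in SAS roots, against 197, 199 and 353 CPM in AS roots (log2 -3.40 ± 0.30, adjusted p = 0.00045). The endotransglucosylase 21 (Gh_D11G3437), which cuts and rejoins xyloglucan, had 16.3, 29.8 and 17.3 CPM in SAS roots, against 3.35, 3.15 and 4.73 CPM in AS roots (log2 2.5 ± 0.30, adjusted p = 0.00088). Of the pectin enzymes 16 of 65 genes tested were higher and 17 lower, and the list summed to 544, 758 and 763 CPM in SAS roots, against 1246, 1452 and 1524 CPM in AS roots. Among the 59 of these that did not pass the FPKM filter through 1 group alone, 11 were higher and 17 lower. The list had 10 higher without AS library 2. A pectin acetylesterase on D08 (Gh_D08G1630) had 49.7, 66.4 and 94.4 CPM in SAS roots, against 315, 384 and 407 CPM in AS roots (log2 -2.39 ± 0.28, adjusted p = 0.00084). The shares called, 54.2% of the expansin list and 50.8% of the pectin list, were above the 39.7% of all genes tested. Both shares include genes that passed the FPKM filter through 1 group alone, a kind of which most were called. Over all other genes tested, 19.5% were higher and 17.4% lower. In the genes named here the groups did not overlap.

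Genes of protein synthesis were seldom higher in SAS roots. Of the ribosomal proteins 41 of 820 genes tested were higher and 146 lower, with a median log2 of -0.25. Among the 808 of these that did not pass the FPKM filter through 1 group alone, 37 were higher and 139 lower. The share lower, 17.8%, was close to the 18.3% of all genes tested, and the share higher, 5.0%, was under the 21.4% of all genes. The list had 25 higher and 72 lower without SAS library 2, 80 lower without SAS library 3, 27 higher without AS library 1 and 24 higher and 51 lower without AS library 2. Their summed share of counts overlapped between the groups, at 10072, 9588 and 10019 CPM in SAS roots, against 9341, 10656 and 10452 CPM in AS roots. A ribosomal protein that went strongly the other way, an L19e family gene of the large subunit (Gh_D02G1221), had 395, 525 and 625 CPM in SAS roots, against 116, 87.3 and 113 CPM in AS roots (log2 2.28 ± 0.25, adjusted p = 0.00072), and CK roots had 1.73, 2.83 and 3.51 CPM. Of the ribosomal RNA processing factors 1 of 41 genes tested were higher and 13 lower (median log2 -0.34). The list had 0 higher and 8 lower without SAS library 2, 0 higher without SAS library 3, 8 lower without AS library 1, 0 higher and 6 lower without AS library 2 and 2 higher without AS library 3. Fibrillarin 1, a methylase of ribosomal RNA (Gh_D08G1066), had 3.07, 4.502 and 2.99 CPM in SAS roots, against 6.92, 6.84 and 7.47 CPM in AS roots (log2 -1.01 ± 0.22, adjusted p = 0.0095). Cell division genes were called less often than all genes tested (27.4% beside 39.7%). Of the cyclins, cyclin-dependent kinases and histones 24 of 164 genes tested were higher and 21 lower, with a median of 0.04 that was -0.02 under plain library-total scaling. That scaling gave 21 higher and 23 lower. The list had 13 lower without SAS library 2, 13 lower without AS library 1 and 12 higher and 9 lower without AS library 2. Clock genes differed by member, and 5 of 25 genes tested were higher and 8 lower. All 4 GIGANTEA genes, evening regulators, were lower, and Gh_A02G0645 had 22.96, 15.2 and 15.2 CPM in SAS roots, against 54.96, 62.6 and 52.6 CPM in AS roots (log2 -1.67 ± 0.21, adjusted p = 0.0011). Pseudo-response regulator 9, a morning regulator, was higher in both genes, of which Gh_D11G3525 did not pass without AS library 2. Regulator 5 went both ways. Gh_A11G0142, Gh_A12G2229 and Gh_D12G2716 were higher (log2 1.03, 1.61 and 1.68), and Gh_Sca013634G01 was lower (log2 -1.17). That lower gene did not pass without SAS library 2 or without AS library 2. Genes of regulator 7 that passed were lower, namely Gh_A11G2902 (log2 -1.01) and Gh_D11G3288 (log2 -0.85). The labels give no clock hour for sampling.

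Markers of cell types were read beside these results. In bulk tissue, fewer cells of a type and less RNA per cell cannot be told apart. On the list of root hair, endodermis and root tip markers 0 of 8 genes tested were higher and 3 lower. All 8 are described as root hair genes, so no endodermis or root tip marker was tested. Of the 33 listed genes 10 were at 0 in all 6 libraries. The list summed to 48.9, 47.8 and 50.7 CPM in SAS roots, against 69.6, 78.9 and 98.6 CPM in AS roots. CK roots held 224, 213 and 224 CPM. The list had 1 higher without AS library 3. Root hair specific 16 on A06 (Gh_A06G0611) had 8.34, 10.9 and 11.96 CPM in SAS roots, against 32.6, 36.03 and 48.5 CPM in AS roots (log2 -1.91 ± 0.22, adjusted p = 0.00082). Root hair markers were thus present in every library, with SAS roots lowest and CK roots highest in sum. Single genes weighed heavily in these sums. Gh_A06G0611 averaged 10.4 CPM in SAS and 39.02 in AS roots, beside list means of 49.1 and 82.4 CPM. Root hair specific 19 (Gh_A07G2109) averaged 117.6 of 220.6 CPM in CK roots. Root hair specific 16 on D06 (Gh_D06G0692) went the other way, at means of 18.3, 14.15 and 10.3 CPM in SAS, AS and CK roots. Root hair specific 14 (Gh_A10G0111, log2 0.51) was also above AS in SAS roots, and neither passed. Of the phloem and xylem markers 15 of 52 genes tested were higher and 14 lower, and they summed to 1429, 1093 and 1107 CPM in SAS roots, against 1941, 2199 and 1319.5 CPM in AS roots. The list had 9 lower without SAS library 2 and 8 lower without AS library 2. Green tissue markers did not separate the groups in 2 of 3 lists. Antenna proteins summed to 113, 73.2 and 81.8 CPM in SAS roots, against 115, 144 and 88.2 CPM in AS roots, and 3 of 10 genes tested were higher and 2 lower. The list had 1 lower without SAS library 2, 1 lower without SAS library 3, 1 lower without AS library 1 and 1 lower without AS library 2. Photosystem and oxygen-evolving proteins summed to 165, 186 and 185 CPM in SAS roots, against 193, 186 and 108 CPM in AS roots, and 11 of 45 genes tested were higher and 4 lower. Among the 40 of these that did not pass the FPKM filter through 1 group alone, 6 were higher and 4 lower. The list had 1 lower without SAS library 2, 2 lower without SAS library 3, 1 lower without AS library 2 and 7 lower without AS library 3. The rubisco small subunit summed to 43.1, 54.5 and 64.1 CPM in SAS roots, against 176, 200.1 and 116 CPM in AS roots. The copy on D03 (Gh_D03G1402) had 9.61, 12.8 and 17.4 CPM in SAS roots, against 88.8, 93.3 and 57.04 CPM in AS roots (log2 -2.59 ± 0.29, adjusted p = 0.00074), although 4 of 6 genes tested were higher and 2 lower. The list had 2 higher without SAS library 2, 2 higher without SAS library 3 and 2 higher without AS library 1. Transcripts of organelle type, which poly(A) selection would mostly leave out, were mostly higher. Of these 6 of 7 genes tested were higher and 0 lower, and the list of 111 summed to 21.02, 61.6 and 35.4 CPM in SAS roots, against 6.51, 7.57 and 10.8 CPM in AS roots, with 3.36, 4.15 and 3.900 CPM in CK roots. What part such differences in cell make-up or RNA capture have in the results above was not tested.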

How the data were processed

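RNA-seq libraries of poly(A) RNA were sequenced in read pairs, per the labels' protocols, and HISAT and StringTie are named in the submitters' processing notes without versions or roles. The authors deposited whole-number counts per gene, not normalized, and FPKM values, in which a count of 0 is listed at 0.0001, for 70478 genes. The aligner settings, annotation and genome build are not given in the sources used here, and the file's coordinates are printed as they stand. None of the file's gene IDs matched the RefSeq table of 99454 genes at hand, so no sequence or outside gene name is printed.

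Samples were grouped by their treatment and tissue labels. Genes that reached an FPKM of 1 in 3 of the 6 libraries were tested on the deposited counts with edgeR 4.0.16 in R 4.3.3 (TMM factors, glmQLFit, glmQLFTest, group as the only term), and p-values were adjusted by Benjamini-Hochberg over all genes tested. CPM is the count divided by library total times TMM factor, multiplied by 1000000, and CK libraries were placed on that scale by TMM factors over the 9 root libraries. The standard error is the absolute log2 difference divided by the square root of F. Genes tested held 98.9% to 99.3% of counts, and a count of 0 allows up to 3 counts in a library, counting error only. The test was also tried on counts simulated with the means and spread of these libraries, with a change set in 200 genes. At a log2 change of 1 or -1 it called 8% and 6% of 50 genes each. At 2 or -2 it called 84% and 76%. Of the genes with no change set, 8 were called. Far fewer genes were changed there than were called here, so these shares need not hold for the data. Tables were made with Python 3.11.15 and pandas 2.3.3.

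The 59 gene lists were drawn from the deposited descriptions. The comparison, its members and these lists were chosen with earlier results of these data known, so counts within lists are descriptions and no list was tested. Genes were named by a rule. Among called genes whose groups do not overlap, with a mean CPM of at least 5 in the higher group, it takes the 10 largest log2 differences each way (mean CPM at least 20), the 5 largest differences in CPM each way, and up to 3 genes each way per list, with 1 gene per description. The text uses some of these. Alternatives were library totals or upper-quartile scaling, DESeq2 1.42.0, limma 3.58.1 on log2(FPKM + 1) or log2(FPKM + 0.1), no filter, an FPKM of at least 5, all 9 root libraries in the fit, a replicate block, and each library left out in turn.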

Additional observations from a re-analysis of the deposited data

How the results depend on the processing

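The direction of every shared call held under all 15 alternatives, since 0 genes called by both fits changed sign. Against 14115 genes called (7615 higher and 6500 lower), the test called 13972 under plain library-total scaling, 14344 with upper-quartile factors, 15803 with DESeq2, 14470 and 14162 with limma on FPKM, 14576 with no filter and 15393 with all 9 root libraries in the fit. Raising the filter to an FPKM of 5 left 20194 genes, of which 9358 were called and 5007 were higher, a loss that follows in part from the smaller number tested. With each library left out in turn, 9173 to 13956 genes were called, 5258 to 7812 higher and 3915 to 6144 lower, the fewest without AS library 2. The share of calls that were higher ranged from 49.5% to 58.2%. Of 315 genes that the naming rule allows, 0 changed direction, 4 lost the call with no filter, 6 with all 9 root libraries and up to 35 with a library left out. Deviations of libraries with the same number correlated at -0.116, -0.200 and -0.0743, so the numbers do not pair the libraries, and the fit with a replicate block called 11138 genes (6308 higher and 4830 lower). With the block 17 of the 315 genes lost the call, and of the proteasome subunits 7 were higher and 9 lower. With limma, log2 differences of low genes are smaller by construction, because a pseudocount is added.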

Other observations

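Further gene groups held members that differed between SAS and AS roots. The share called was under the 39.7% of all genes tested in the lists of calcium genes (30.5%), tubulins and kinesins (31.3%), flavonoid genes (24%), proteasome subunits (20%) and autophagy genes (37.1%). Of the calmodulins and calcium-dependent kinases 29 of 141 genes tested were higher and 14 lower. Among the 136 of these that did not pass the FPKM filter through 1 group alone, 26 were higher and 12 lower. The list had 18 higher and 8 lower without SAS library 2, 7 lower without SAS library 3, 17 higher and 8 lower without AS library 1 and 13 higher and 6 lower without AS library 2. Calmodulin-like 38, a calcium sensor known from low oxygen (Gh_D11G0391), had 109, 111 and 90.1 CPM in SAS roots, against 19.99, 16.4 and 28.5 CPM in AS roots (log2 2.26 ± 0.24, adjusted p = 0.00066). The kinase CIPK7 (Gh_D02G0404) had 52.4, 40.2 and 81.3 CPM in SAS roots, against 423, 396 and 152 CPM in AS roots (log2 -2.48 ± 0.44, adjusted p = 0.0037). Of the MATE and malate efflux transporters 21 of 67 genes tested were higher and 18 lower. Among the 57 of these that did not pass the FPKM filter through 1 group alone, 13 were higher and 16 lower. The list had 11 lower without AS library 2. SLAC1 homologue 1, an anion channel (Gh_A05G1618), had 8.696, 10.8 and 9.04 CPM in SAS roots, against 0.751, 1.199 and 0.869 CPM in AS roots (log2 3.33 ± 0.25, adjusted p = 0.00041), with no overlap. Of the raffinose, trehalose and proline genes 14 of 38 genes tested were higher and 4 lower. The list had 7 lower without SAS library 1 and 8 higher without AS library 2. Seed imbibition 2, a raffinose-family enzyme (Gh_D01G1177), had 77.9, 76.2 and 75.4 CPM in SAS roots, against 254, 309 and 285 CPM in AS roots (log2 -1.89 ± 0.18, adjusted p = 0.00052). Of the senescence genes 25 of 67 genes tested were higher and 6 lower (median log2 0.54), among them non-yellowing 1, a regulator of chlorophyll loss (Gh_D08G1908), with 7.24, 8.26 and 4.77 CPM in SAS roots, against 1.11, 0.841 and 1.15 CPM in AS roots (log2 2.71 ± 0.29, adjusted p = 0.00066). Among the 61 of these that did not pass the FPKM filter through 1 group alone, 20 were higher and 6 lower.

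Lipid-transfer proteins were split, and 14 of 50 genes tested were higher and 14 lower, but their summed level was 108, 175 and 126 CPM in SAS roots, against 402, 462 and 862 CPM in AS roots. Among the 41 of these that did not pass the FPKM filter through 1 group alone, 9 were higher and 10 lower. The list had 9 higher without SAS library 2, 9 higher without SAS library 3 and 9 higher without AS library 2. CK roots summed to 2879, 529.6 and 691 CPM, with CK library 1 far above the others. Of the osmotin, thaumatin and chitinase genes 20 of 56 genes tested were higher and 11 lower. The list had 6 lower without AS library 2. A thaumatin gene on D03 (Gh_D03G1229) had 6.09, 5.55 and 3.85 CPM in SAS roots, against 18.5, 30.4 and 28.7 CPM in AS roots (log2 -2.32 ± 0.26, adjusted p = 0.00078). Of the flavonoid genes 3 of 25 genes tested were higher and 3 lower. The list had 6 higher without SAS library 1, 0 higher without SAS library 2, 0 higher and 1 lower without SAS library 3, 0 higher and 1 lower without AS library 1 and 0 higher and 1 lower without AS library 2. Of the tubulins and kinesins 10 of 64 genes tested were higher and 10 lower. The list had 5 lower without SAS library 2, 4 lower without SAS library 3, 3 lower without AS library 1, 6 higher and 5 lower without AS library 2 and 16 higher without AS library 3. Of the proteasome subunits 19 of 145 genes tested were higher and 10 lower, with a median log2 of 0.03 that was -0.03 under plain library-total scaling. That scaling gave 12 higher and 14 lower, so the balance of calls turned. The list had 12 higher without SAS library 1, 10 higher without SAS library 2, 12 higher and 6 lower without SAS library 3, 8 higher and 5 lower without AS library 1 and 4 higher and 4 lower without AS library 2. Of the autophagy genes 8 of 35 genes tested were higher and 5 lower. The list had 3 higher and 3 lower without SAS library 2, 4 higher without SAS library 3, 3 lower without AS library 1 and 4 higher and 3 lower without AS library 2. Of 4902 tested genes with no deposited description, 1796 were called (36.6%), which no list above covers.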
